A study of Anopheles merus and Anopheles coluzzii with 36 samples.

Results

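Larvae of the mosquito Anopheles merus held in water at 40% of the salinity of seawater were compared with larvae of the same species held in fresh water (0%), across all 10905 genes of the deposited table. The comparison uses 6 of the 36 libraries of the series, 3 at 40% and 3 at 0%, chosen by species and salinity from the sample labels. Each library was made from the poly(A) RNA of a pool of 35 to 50 whole larvae. The larvae had been raised in fresh water for 18 h after hatching. They were then moved for 6 h into water of 0 or 40% salinity. The stated age, handling time and rearing water were thus the same in both groups. The stated difference was the salinity of the last 6 h. The other libraries used beside them were An. merus at 10, 20, 30 and 50% and An. coluzzii, a sibling species, at the same 6 salinities, with 3 pools each. The labels give no strain or colony and do not say if the pools were raised in separate cultures. The p-values therefore measure only the spread between pools, pooled over all 12 groups of the series, which may be partly technical.

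Mosquito larvae take up salt and water through the gut and anal papillae, and the Malpighian tubules and rectum set what is excreted. Euryhaline larvae, An. merus among them, can make a urine that keeps the haemolymph stable in brackish water. Freshwater larvae such as those of An. coluzzii mainly recover ions from a dilute urine. Whole larvae mix all these tissues with muscle, fat body, cuticle and nerve, and in such bulk samples fewer cells of a type and less RNA per cell cannot be told apart. The table gives gene identifiers with no names, and none of them matched the reference table at hand, so genes are given by identifier, without roles, and tissue markers were not looked up.

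The 6 libraries held 9174563 to 19548005 reads. Values are in CPM, which the authors scaled between libraries by the trimmed mean of M values. The scaled values of the 6 libraries therefore add up to different totals, 917772 to 1064540. A gene with no read could have up to 0.145 to 0.348 CPM, depending on the library, by the limit of 3 reads that a count of 0 allows, which covers counting error only. The fresh water library A stood apart and was the shallowest. Over the 8758 genes with a mean of at least 5 CPM, its root mean square log2 difference was 0.546 from fresh water library B and 0.553 from C, while B and C differed by 0.400. Within the 40% group these differences ran from 0.246 to 0.342, and between the groups from 0.481 to 0.838. The median SD of a gene between pools was 0.221 at 0% and 0.150 at 40% on the log2 scale. In the other groups of the series it ran from 0.090 to 0.160, so the An. merus pools at 0% were the most spread. A spread pooled over all 12 groups can therefore understate theirs, and make SEs and p-values against fresh water too small. The total of called genes and the main counts over the risen and fallen sets are therefore also given without fresh water library A.

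The largest changes at 40% were the rises of AGAP000239 and AGAP004583 and the falls of AGAP004130 and AGAP005591, among genes that met the conditions for naming. Across the table, 4286 of 10905 genes (39.3%) differed between 40% and fresh water, of which 1937 rose and 2349 fell (limma on log2(CPM + 0.5), Benjamini-Hochberg adjusted p under 0.05, the spread of each gene pooled over all 12 groups of the series). Most of the changes were small. The median log2 fold change was 0.57 among risen genes and -0.61 among fallen genes, against -0.02 over all genes, and 2135 of the 4286 (49.8%) were under 1.5-fold. Of the called genes, 621 had changed at least 2-fold, 5.69% of those tested, and more of these fell (427) than rose (194). Over alternative fits the count of such genes ran from 419 to 806. At least 4-fold changes among the called genes were fewer, 23 risen and 36 fallen, and at least 8-fold changes numbered 7 and 9.

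The groups did not overlap for 4442 genes (40.7%). All 3 libraries at 40% lay above all 3 in fresh water for 1884 genes and below them for 2558. Of the called genes, 1555 of the risen and 2079 of the fallen had no overlap. Genes without any read in the fresh water libraries numbered 56, and 51 had none in the 40% libraries. In both groups together, 34 genes had none.

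The count depended on how the spread was estimated and on fresh water library A. With the spread taken from the 6 libraries alone, 1747 genes were called (640 risen, 1107 fallen), and 577 of them had changed at least 2-fold (171 risen, 406 fallen). Without fresh water library A, 2885 genes were called (1306 risen, 1579 fallen), 518 of them at least 2-fold (192 risen, 326 fallen), and 2759 of the 4286 (64.4%) kept their call. A call held in the full set of libraries and without each of the 6 libraries in turn for 2419 genes, 1021 risen and 1398 fallen.

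**Figure D1:**
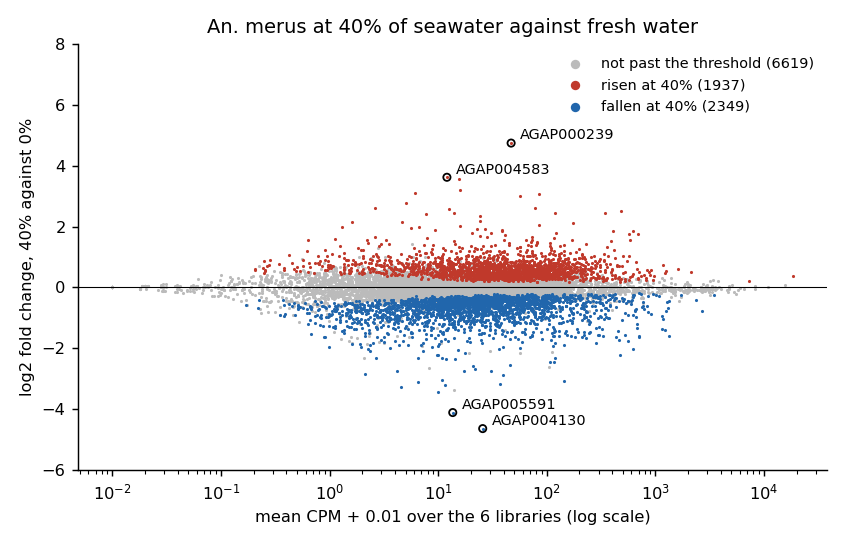
Log2 fold change of each of 10905 genes at 40% against fresh water in An. merus (y axis, fitted on log2(CPM + 0.5)) over its mean CPM in the 6 libraries (x axis, log scale). Red points are the 1937 risen and blue points the 2349 fallen genes, grey the 6619 not past the threshold, and circles mark the 4 named genes. Most called genes lie close above or below 0, and among them falls of at least 2-fold (427) outnumber rises of that size (194).

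AGAP000239 measured 5.45, 1.93 and 1.88 CPM in the fresh water libraries A, B and C and 81.1, 128.8 and 62.4 CPM at 40%. The lowest 40% library was far above the highest in fresh water. The rise was 26.8-fold, or 4.74 ± 0.80 in log2 units (SE), with a limma adjusted p of 3.3e-05. This gene was already above all fresh water libraries in the 3 pools at 10%, at 67.0, 23.7 and 6.09 CPM, but these pools lay far apart and the change at 10% did not pass the test (2.76 ± 0.80 log2 units, SE, with a limma adjusted p of 0.098).

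AGAP004583 stood at 1.62, 0.623 and 1.88 CPM in fresh water and 20.3, 33.0 and 14.7 CPM at 40%, again without overlap. Its log2 change was a rise by 3.62 ± 0.49 (SE), with a limma adjusted p of 1.5e-06. At 10 and 20% its libraries stayed between 0.514 and 1.56 CPM, and at 30% they were spread from 1.25 to 17.3 CPM. The 3 pools at 50% held 72.8, 87.1 and 60.3 CPM. The change passed the test at 30% (limma adjusted p = 0.014) and not at 10 or 20%.

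AGAP005591 measured 15.3, 14.8 and 48.7 CPM in fresh water and 0.599, 1.65 and 0.483 CPM at 40%, and fell by 4.11 log2 units (SE 0.51), with a limma adjusted p of 5.0e-07. Most of this fall was present at the lowest salinity, where the 3 pools held 2.54, 3.16 and 5.24 CPM (change at 10% against fresh water of -2.51 ± 0.51 log2 units, SE, with a limma adjusted p of 0.0094). From 30% on all libraries were between 0.483 and 1.83 CPM.

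AGAP004130 had the largest fall and the least certain one. Its fresh water libraries held 32.8, 2.31 and 117.7 CPM, and its 40% libraries 0.399, 0.266 and 0.543 CPM, which rest on 6, 5 and 9 reads. The groups did not overlap, although the fresh water pools lay far apart. The log2 fold change was -4.64 ± 1.45 (SE; limma adjusted p = 0.012). It lost its call without fresh water library A (-4.35, limma adjusted p = 0.051) or C (-3.43, limma adjusted p = 0.079), and without B the change was -6.13 (limma adjusted p = 0.0023). Over all alternatives, edgeR and DESeq2 included, the adjusted p ran from 7.5e-06 to 0.079. The pools at 10, 20 and 30% held 1.08 to 233 CPM, and all libraries of those groups were above the 3 at 40%. At 50% the libraries held 37.7, 7.37 and 0.158 CPM (-1.93 ± 1.45 log2 units against fresh water, SE, limma adjusted p = 0.24). Against fresh water the gene was not called at 10, 20, 30 or 50%, and its estimates at 10, 20 and 30% were above 0 (1.56, 0.30 and 2.14).

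**Figure D2:**
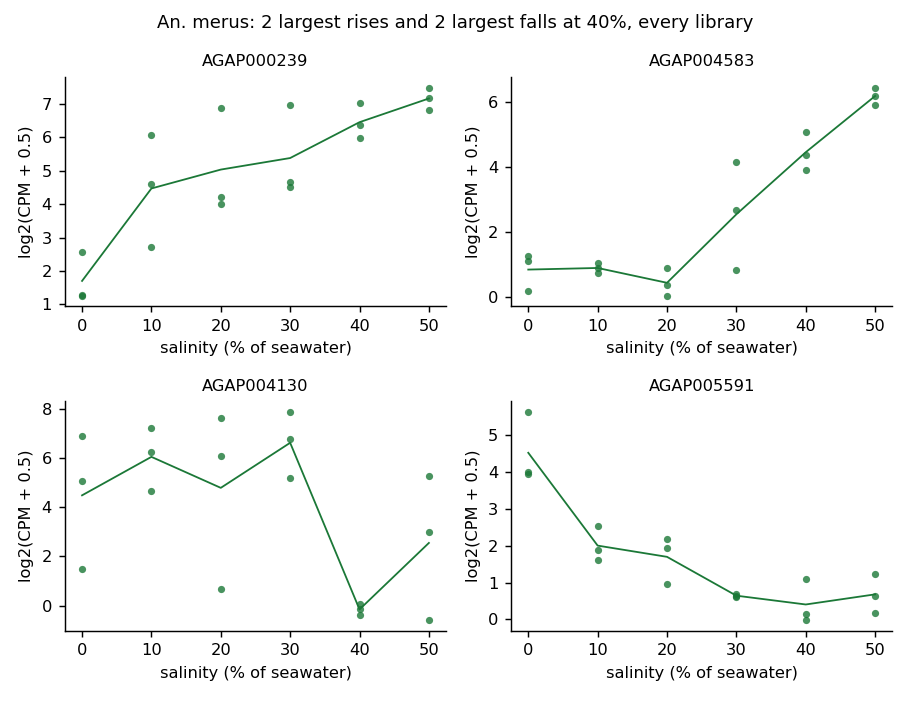
Level of the 4 named genes in every An. merus library (points, y axis log2(CPM + 0.5)) over salinity in percent of seawater (x axis), with lines through the means of 3 libraries. The mean of AGAP000239 lay higher at each salinity than at the one before, with pools far apart from 10 to 30%, AGAP004583 stayed low up to 20%, AGAP005591 dropped at 10%, and AGAP004130 was widely spread except at 40%.

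The share of all reads taken by the called genes shifted. The 1937 risen genes took 11.9, 15.1 and 16.5% of the reads of the fresh water libraries A, B and C and 21.2, 21.4 and 22.5% at 40%, or 14.5 ± 2.32% against 21.7 ± 0.715% (SD, n = 3). The 2349 fallen genes took 20.0, 19.1 and 18.6% in fresh water and 12.7, 12.02 and 11.9% at 40%, or 19.2 ± 0.715% against 12.2 ± 0.438% (SD, n = 3). These sets were chosen on the same libraries, so the shares describe their weight and test nothing. The share held by the 100 most abundant genes was 35.2 ± 2.03% in fresh water and 35.4 ± 0.960% at 40% (SD, n = 3).

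Rises and falls were spread differently over the range of abundance. CPM is not corrected for gene length, so the bins mix long and short genes. Among the 3306 genes with a mean of 5 to 20 CPM over all libraries of the series, 11.2% rose and 23.7% fell. In the 3925 genes at 20 to 100 CPM these shares were 24.7 and 22.6%, and in the 1236 genes at 100 to 500 CPM they were 32.4 and 20.1%. Falls thus outnumbered rises in the bins under 20 CPM. Rises outnumbered falls in the bins from 20 CPM up, by little at 20 to 100 CPM (969 against 889). The bins are given for the main fit only, not without fresh water library A. Over all genes the balance of rises and falls moved with the scaling, with 2198 rises and 2098 falls under quantile normalization. Of the 291 genes at 500 CPM or more, 15.8% rose and 13.7% fell. Under 1 CPM 18.8% of 457 genes were called, where the median SE of a log2 fold change was 0.22 against 0.12 at 100 to 500 CPM.

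The genes called at 40% were followed over the other salinities. All these comparisons share the fresh water libraries, which alone can make them alike, so the values are set side by side and not tested against each other. Relative to fresh water the median log2 fold change of the 1937 risen genes was 0.21 at 10%, 0.30 at 20%, 0.38 at 30%, 0.57 at 40% and 0.94 at 50%. For the 2349 fallen genes it was -0.21, -0.32, -0.39, -0.61 and -0.91 in the same order, while the median of all genes stayed between -0.06 and 0. By library, the risen set stood at 0.52, 0.56 and 0.61 at 40% and at 0.91 to 0.97 at 50%. The fresh water pools themselves were at -0.15 in A, 0.04 in B and 0.14 in C for this set, so library A was the lowest. Without it, the median change at 40% of the same genes was 0.43 for the risen and -0.52 for the fallen set.

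**Figure D3:**
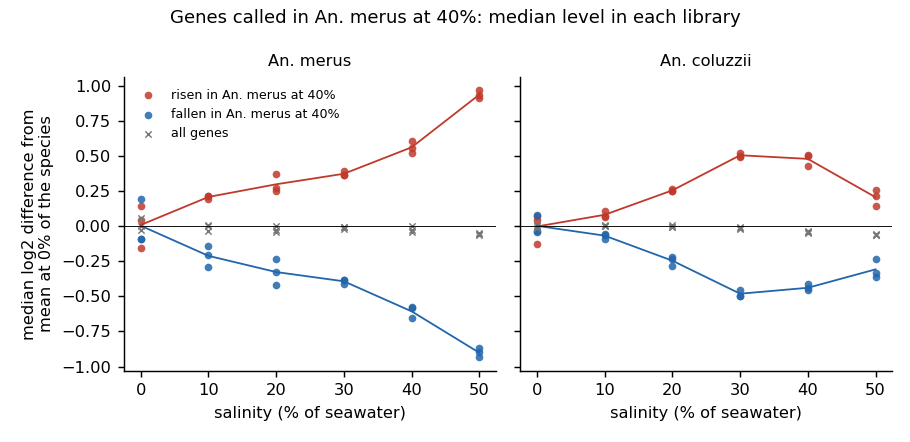
Median log2 difference from the species' own fresh water mean (y axis) in every library over salinity in percent of seawater (x axis), for the genes risen (red) and fallen (blue) in An. merus at 40% and for all genes (grey crosses), with lines through the means of 3 libraries. In An. merus the sets move apart up to 50%, at 0.91 to 0.97 and -0.94 to -0.87, and in An. coluzzii they lie furthest apart at 30 and 40%.

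Pools at 50 and 10% were also compared with each other, a choice made after the data had been seen. Their levels do not enter the fold changes that chose the sets, but they do enter the pooled spread, which both comparisons use. Over all genes 27.6% were higher at 50% than at 10% and 34.0% lower (limma adjusted p under 0.05). Of the 1937 genes risen at 40%, 1550 (80.0%) were higher at 50% than at 10%, 356 had no call and 31 were lower. Of the 2349 fallen genes, 1772 (75.4%) were lower, 528 had no call and 49 were higher. The median log2 difference was 0.69 for the risen set, -0.69 for the fallen set and -0.04 for all genes. With the sets chosen without fresh water library A, 1092 of 1306 (83.6%) were higher and 1269 of 1579 (80.4%) lower. AGAP004583 was 39.6-fold higher at 50% than at 10% (log2 difference 5.31 ± 0.49 SE, limma adjusted p = 4.0e-10), and AGAP000239 6.45-fold (2.69 ± 0.80 SE, limma adjusted p = 0.0048). AGAP005591 was 2.50-fold lower (-1.32 ± 0.51 SE, limma adjusted p = 0.027).

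The step from 30 to 40% separated few genes. Among genes called at 40% against fresh water whose 30 and 40% libraries did not overlap, AGAP006978 and AGAP028201 rose most and AGAP004130 and AGAP004129 fell most over it. AGAP004583 rose by 1.92 ± 0.49 log2 units (SE; limma adjusted p = 0.034), more than AGAP028201, but its groups overlapped. In all, 197 genes (1.81%) differed between 40 and 30%, 84 higher and 113 lower at 40% (limma adjusted p under 0.05). The 40% libraries enter this comparison and that with fresh water, and of the 197 genes 83 had risen and 113 had fallen at 40% against fresh water. The count was 0 when the spread came from the 30 and 40% libraries alone, where the smallest limma adjusted p was 0.0501 and 1473 genes had an unadjusted p under 0.05, and 340 with DESeq2. It ran from 52 to 202 when single libraries were left out, with 106 and 52 without 40% B and C and 118, 53 and 95 without 30% A, B and C.

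AGAP028201 measured 3.96, 2.47 and 3.81 CPM at 30% and 8.18, 10.2 and 8.45 CPM at 40%, without overlap. The fresh water libraries were at 1.16, 1.25 and 4.48 CPM and the 50% libraries at 23.5, 34.4 and 21.0 CPM. The log2 difference between 40 and 30% was 1.29 ± 0.29 (SE; limma adjusted p = 0.016). That call was lost in 5 of 17 alternatives, among them the fits without 40% B, 40% C or 30% B (adjusted p over the alternatives, edgeR and DESeq2 included, 0.0013 to 0.129). The rise at 40% against fresh water, 1.95 ± 0.29 (SE), kept its call in all 17.

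AGAP006978 was low in most libraries of An. merus and stood out at 40%. It measured 0.464, 0.312 and 0.193 CPM in fresh water, 0.102, 0.114 and 1.24 CPM at 30% and 1.53, 2.77 and 25.1 CPM at 40%. The groups did not overlap, but library C at 40% held most of the signal. The mean of at least 5 CPM needed for naming also rested on that library, with group means of 0.486 CPM at 30% and 9.81 CPM at 40%. The log2 difference between 40 and 30% was 2.68 ± 0.66 (SE; limma adjusted p = 0.028) and 1.58 without 40% C (limma adjusted p = 0.279), which was not called, while it was 3.41 without 40% A. It also lost that call without 30% A or B, and its adjusted p over the alternatives, edgeR and DESeq2 included, ran from 0.0082 to 0.282. Against fresh water the rise was 2.76 ± 0.66 (SE; limma adjusted p = 0.0015) and 1.66 without 40% C, still called. That call was lost when only the 0 and 40% libraries were fitted (limma adjusted p = 0.075; over all its alternatives, DESeq2 included, 2.0e-04 to 0.075).

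AGAP004129 had its lowest and highest values in the same libraries as AGAP004130 at 30%, though not at 40%. Its 30% libraries held 37.0, 11.2 and 122.6 CPM and its 40% libraries 0.599, 0.586 and 0.423 CPM, where AGAP004130 held 109.0, 36.2 and 233 CPM and 0.399, 0.266 and 0.543 CPM. The log2 difference between 40 and 30% was -6.77 ± 1.45 for AGAP004130 (SE; limma adjusted p = 0.013) and -5.20 ± 1.34 for AGAP004129 (SE; limma adjusted p = 0.038). AGAP004130 lost this call without 40% C or 30% C, and AGAP004129 without any 1 of the 6 libraries (highest adjusted p over their alternatives 0.084 and 0.189). Against fresh water AGAP004129 had a limma adjusted p of 0.041, lost in 9 of 17 alternatives. Sharing of reads within this pair was not tested, so the pair is uncertain as separate measurements.

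Between 40 and 50% many more genes moved. AGAP009460 and AGAP004149 rose most over this step among genes called at 40% that met the conditions for naming, and AGAP006978 and AGAP002798 fell most. Of all genes, 19.4% were higher and 25.4% lower at 50% than at 40%, 2116 and 2770. With library totals as the scaling the numbers were 1090 and 3755, and the median of all genes shifted by -0.16 log2 units, so the balance of directions depends on the scaling. Of the 1937 genes risen at 40%, 959 (49.5%) rose further, 876 had no call and 102 (5.27%) were lower again. Of the 2349 fallen genes, 965 (41.1%) fell further, 1252 had no call and 132 (5.62%) were higher again. The 40% libraries that chose these sets also enter this step, so the counts describe the sets. With the sets chosen without fresh water library A, 713 of 1306 rose further and 93 were lower again, and 672 of 1579 fell further and 115 were higher again.

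AGAP009460 held 0.812, 0.935 and 2.60 CPM in fresh water, 3.79, 4.85 and 3.92 CPM at 40% and 73.6, 143.3 and 105.5 CPM at 50%. Its 3 groups did not overlap. The change at 40% was modest, 1.37 ± 0.31 log2 units (SE) with a limma adjusted p of 8.1e-04, beside 4.48 ± 0.31 over the last step (SE; limma adjusted p = 2.0e-11). AGAP004149 behaved alike, with 4.41, 5.73 and 5.01 CPM in fresh water, 9.05, 13.6 and 13.9 CPM at 40% and 87.2, 99.1 and 100.5 CPM at 50%. It rose by 1.17 ± 0.23 at 40% against fresh water (SE; limma adjusted p = 1.7e-04) and its 30% libraries, at 5.20 to 6.37 CPM, overlapped those in fresh water. AGAP002798 measured 644, 446.8 and 271 CPM in fresh water, 214, 111.3 and 127.0 CPM at 40% and 25.8, 32.5 and 26.0 CPM at 50%. It fell by 1.56 at 40% (SE 0.34, limma adjusted p = 6.7e-04) and by a further 2.35 to 50% (SE 0.34, limma adjusted p = 3.5e-06) on the log2 scale.

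A small group of genes turned back. In the 102 risen genes that were lower again at 50%, the median log2 fold change was 0.40 at 40% and the median step to 50% was -0.44. At 50% 85 of them had no call against fresh water, 9 were still called higher and 8 lower. In the 132 fallen genes that were higher again, these medians were -0.68 and 0.53, with 88 not called at 50%, 33 still lower and 11 higher. The sizes of both groups depended on the scaling and on single libraries. The 102 became 204 with library totals and 57 without 40% B, and the 132 became 61 with library totals and 74 without 50% B. Genes beyond both neighbours, called higher or lower at 40% than at 30% and also than at 50%, numbered 3 risen and 1 fallen.

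Of the risen genes that turned back and met the conditions for naming, AGAP006978 and AGAP011919 dropped most. The An. merus libraries of AGAP011919 held 22.7, 20.1 and 20.9 CPM in fresh water, 104.1, 112.8 and 110.3 CPM at 30%, 155.8, 145.0 and 100.5 CPM at 40% and 46.5, 25.3 and 49.6 CPM at 50%. Fresh water and 40% did not overlap, nor did 40 and 50%. The log2 fold change at 40% was 2.60 ± 0.31 (SE; limma adjusted p = 2.3e-07) and the step to 50% was -1.75 ± 0.31 (SE; limma adjusted p = 4.4e-05). In An. coluzzii this gene stood at 67.9, 76.4 and 72.1 CPM at 40% and at 123.6, 139.3 and 100.6 CPM at 50%, where the last value comes from a column named for 1 of several lane parts of that library. AGAP006978 had the largest drop, to 0.766, 0 and 0.0791 CPM at 50% (log2 difference -2.95 ± 0.66 SE, limma adjusted p = 6.4e-04, and -1.85 without 40% C, still called).

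Among the fallen genes, AGAP008360 went from 17.1, 15.95 and 14.3 CPM in fresh water to 7.92, 8.42 and 8.94 CPM at 40% and to 22.7, 33.1 and 27.0 CPM at 50%. All 3 groups were apart, with 50% above fresh water. The log2 fold change at 40% was -0.87 ± 0.13 (SE; limma adjusted p = 7.4e-06) and the step to 50% was 1.64 ± 0.13 (SE; limma adjusted p = 3.3e-10). AGAP005834 measured 8.01, 7.60 and 10.3 CPM in fresh water, 5.59, 4.53 and 3.68 CPM at 40% and 12.4, 16.8 and 13.5 CPM at 50%. It had been as low at 10%, with 3.29, 4.56 and 4.96 CPM, as at 40%. Its log2 fold change was -0.85 ± 0.21 at 40% (SE; limma adjusted p = 0.0022) and 1.54 ± 0.21 from there to 50% (SE; limma adjusted p = 1.5e-06).

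**Figure D4:**
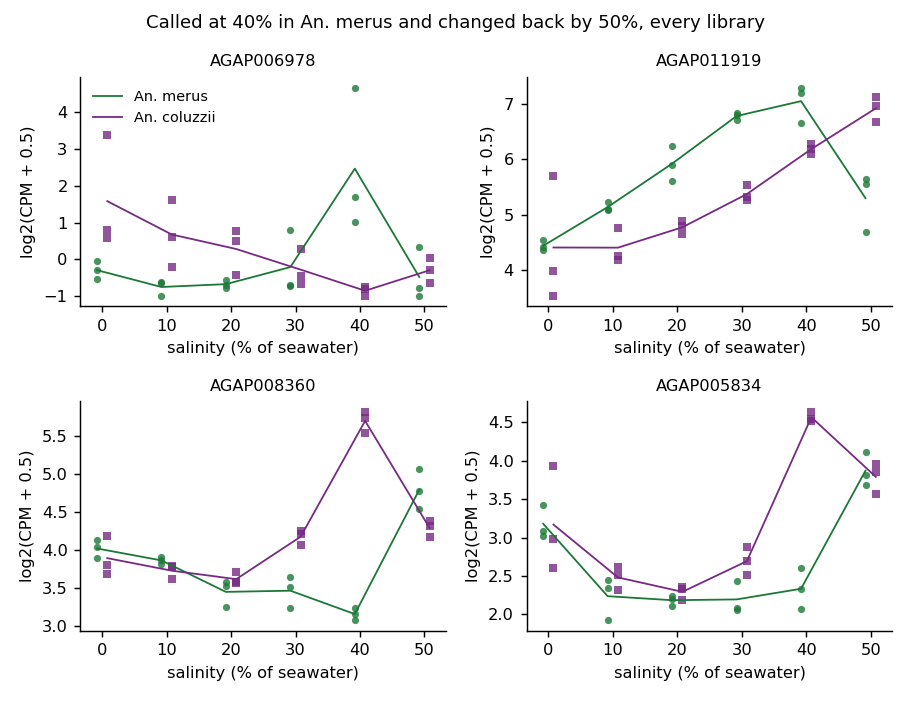
Level of 4 genes that were called at 40% in An. merus and changed back by 50%, in every library (points, y axis log2(CPM + 0.5)) over salinity in percent of seawater (x axis), with lines through the means of 3 libraries for An. merus (green circles) and An. coluzzii (purple squares). In An. merus AGAP011919 and AGAP006978 were highest on average at 40%, and AGAP008360 and AGAP005834 were lower at 40% than at 0 or 50%. In An. coluzzii the last 2 of these were highest at 40%.

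Whether the change at 40% differed between the species was asked with the interaction of species and salinity, which uses the An. coluzzii libraries at 0 and 40%. The response was higher in An. merus by most for AGAP006984 and AGAP006986 and lower by most for AGAP006400 and AGAP006525. This ranking is among genes called in An. merus at 40% with a mean of at least 5 CPM over the libraries compared. AGAP006525 met that mean only through An. coluzzii at 40% (28.4 CPM). Its means were 0.62 CPM in An. coluzzii at 0% and 0.48 and 1.31 CPM in An. merus at 0 and 40%. Over all genes 22.9% had a higher response in An. merus and 21.3% a lower one, 2497 and 2326 (limma adjusted p under 0.05). This split depends on the scaling, with 4145 and 1204 under library totals, which shifted the median of all genes by 0.32 log2 units. Of the 1937 risen genes, 537 rose more in An. merus than in An. coluzzii, 342 less, and 1058 had no call for a difference. Of the 537, 42 were also called higher in An. coluzzii, 295 had no call there and 200 were called lower. All of the 342 were called higher in both species. Of the 2349 fallen genes, 756 fell more in An. merus, 325 less, and 1268 had no call. Of the 756, 67 were also called lower in An. coluzzii, 420 had no call there and 269 were called higher. All of the 325 were called lower in both species. The libraries that chose these sets also enter the interaction, which favours a larger change in An. merus, so the counts describe the sets. With the sets chosen without fresh water library A, 388 of 1306 rose more and 273 less, and 474 of 1579 fell more and 250 less. A missing call does not show that the species responded alike.

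In An. coluzzii itself, 30.6% of all genes were higher and 35.0% lower at 40% than at 0%. Among the genes risen in An. merus, 1169 (60.4%) were also called higher in An. coluzzii, 568 had no call and 200 (10.3%) were called lower. Among the fallen genes, 1341 (57.1%) were also lower, 739 had no call and 269 (11.5%) were higher. The median log2 fold change in An. coluzzii was 0.48 for the risen and -0.43 for the fallen set, beside -0.04 for all genes. Under library totals, genes called higher in both species numbered 792 and lower in both 1579, and the opposite genes split into 400 risen and 116 fallen in An. merus. With the sets chosen without fresh water library A, 816 of 1306 (62.5%) were also higher and 970 of 1579 (61.4%) also lower in An. coluzzii.

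AGAP006984 measured 0.116, 0.499 and 0.627 CPM at 0% and 2.93, 4.10 and 28.4 CPM at 40% in An. merus. In An. coluzzii its libraries held 2.77, 45.5 and 8.70 CPM at 0% and 0.876, 0.675 and 0.796 CPM at 40%. The groups did not overlap in either species, and they lay in opposite orders. The difference in response was 6.24 ± 1.26 log2 units (SE), with a limma adjusted p of 2.3e-04. It was 5.29 without An. merus 40% C, and 7.13 and 5.22 without An. coluzzii 0% A and B, called in each. As for AGAP006978, library C held the highest value at 40%, and without it the rise in An. merus alone lost its call (2.17, limma adjusted p = 0.077; over all its alternatives, DESeq2 included, 2.6e-04 to 0.077).

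AGAP006986 showed the same order of libraries, with 10.2, 18.8 and 59.9 CPM at 40% against 1.62, 2.18 and 2.22 CPM in fresh water in An. merus. Its An. coluzzii libraries held 4.80, 25.3 and 9.72 CPM at 0% and 2.16, 2.30 and 1.59 CPM at 40%. The difference in response was 5.38 ± 0.92 (SE; limma adjusted p = 3.3e-05), and 4.69 without An. merus 40% C and 4.78 without An. coluzzii 0% B. AGAP006978, AGAP006984 and AGAP006986 were each highest in library C among the 40% pools of An. merus and in library B among the 0% pools of An. coluzzii. Whether these 3 genes shared reads was not tested, and they are uncertain as separate measurements.

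AGAP006400 fell in An. merus and rose in An. coluzzii. It held 15.4, 10.03 and 10.6 CPM in fresh water and 2.06, 1.97 and 3.38 CPM at 40% in An. merus. The An. coluzzii libraries held 1.29, 1.22 and 1.64 CPM at 0% and 8.89, 5.87 and 8.89 CPM at 40%. Neither species had overlapping groups, and the difference in response was -4.22 ± 0.34 (SE; limma adjusted p = 1.5e-10). AGAP006525 rose in both species, but far more in An. coluzzii, from 0.791, 0.565 and 0.512 CPM to 30.7, 26.6 and 28.0 CPM. In An. merus it went from 0.464, 0.436 and 0.530 CPM to 1.26, 1.23 and 1.45 CPM (0.89 ± 0.19 log2 units, SE, with a limma adjusted p of 5.1e-04) and reached 5.89, 8.996 and 7.67 CPM at 50%. Its difference in response at 40% was -3.80 ± 0.27 (SE; limma adjusted p = 1.8e-11). Its fresh water values were close in size to the added 0.5 CPM in both species, so the log2 changes of this gene understate its folds in CPM.

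The genes with the largest changes at 40% in An. merus differed in how they compared with the sibling species. AGAP000239 had a higher response in An. merus (difference 3.38 ± 1.13, SE, with a limma adjusted p of 0.017), and AGAP004583 a lower one (-2.13 ± 0.69 SE, limma adjusted p = 0.013), since its An. coluzzii libraries reached 77.7, 79.5 and 71.6 CPM at 40%. In An. coluzzii AGAP000239 held 1.63, 8.29 and 23.0 CPM at 0% and 23.9, 16.7 and 17.5 CPM at 40%, with overlap. AGAP005591 fell in both species, by 4.11 log2 units in An. merus and by 3.38 in An. coluzzii, and had no call for a difference (-0.73, 95% interval -2.21 to 0.75). AGAP004130 also fell in An. coluzzii, by 4.05 log2 units (SE 1.45, limma adjusted p = 0.016). It had no call for a difference (-0.58, 95% interval -4.79 to 3.62). AGAP008360 and AGAP005834, which fell in An. merus, were both higher in An. coluzzii at 40%, at 46.3 to 56.1 CPM and 22.4 to 24.3 CPM against 12.4 to 17.7 CPM and 5.56 to 14.7 CPM at 0%. The differences in response of this pair were -2.67 ± 0.18 (SE; limma adjusted p = 1.3e-11) and -2.24 ± 0.30 (SE; limma adjusted p = 1.0e-06).

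**Figure D5:**
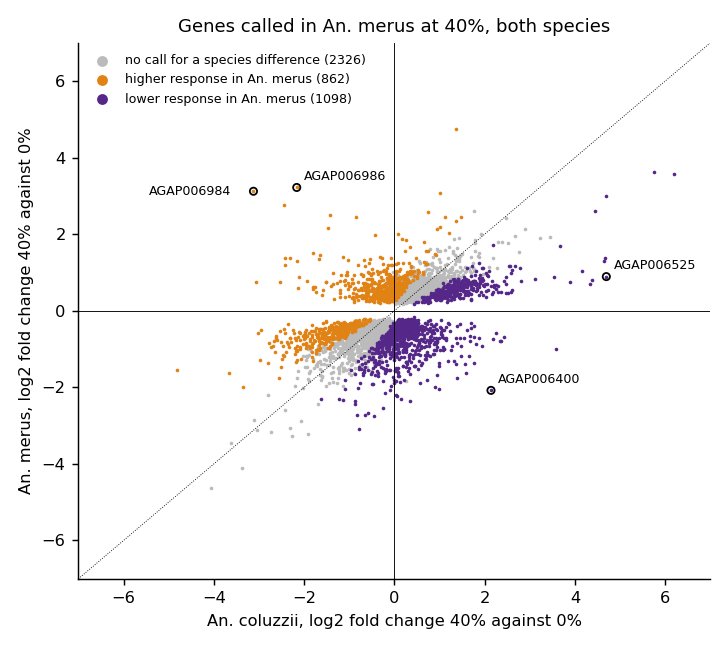
Log2 fold change at 40% against 0% in An. merus (y axis) and An. coluzzii (x axis) for the 4286 genes called in An. merus. Colours give the call for a difference in response between the species, higher in An. merus in orange (862 genes), lower in purple (1098) and no call in grey (2326). The dotted line marks equal change and circles mark the 4 named genes, of which AGAP006984 and AGAP006986 lie at top left and AGAP006400 and AGAP006525 at right.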

How the data were processed

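Per the submitters' processing notes, the authors used Trimmomatic, Bowtie2, TopHat2, HTSeq and edgeR, with versions, genome build and annotation not given in the sources used here. Per gene and library the deposited table gives a normalized signal, CPM scaled by the trimmed mean of M values (TMM), per the file headers and name. This scaling takes most genes as unchanged, and directions are relative to them. That may not hold where most genes were called. Against fresh water 7594 of 10905 genes were called in An. merus at 50%. In An. coluzzii at 40%, 30.6% were called higher and 35.0% lower. All values (100%) were whole multiples of 1 read within 0.001, and these reads went to edgeR 4.0.16 and DESeq2 1.42.0.

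Values were tested as log2(CPM + 0.5) in limma 3.58.1 (R 4.3.3), with 12 group means over 36 libraries, a mean trend, two-sided unpaired tests and adjustment over 10905 genes. The added 0.5 CPM makes fold changes of low genes too small. Named were, per comparison, the 2 largest rises and 2 largest falls among genes called at 40% whose mean over the libraries compared was 5 CPM or more, without overlap between groups except for the interaction (3191, 162, 1763 and 1743 genes qualified), and 2 genes turning back each way. Of 16199 reference genes 0 matched, so lists of osmoregulatory and tissue genes were not tested and no sequence is shown. edgeR called 4092 genes at 40%, 4032 of them shared with limma, and DESeq2 4114. Genes and lists were chosen with earlier results of these data known. The comparison of 50 with 10%, the at least 2-fold and turning-back counts and the counts across species were chosen after seeing the data. Scripts were tested on simulated reads. Figures used matplotlib 3.10.9 in Python 3.11.15.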

Additional observations from a re-analysis of the deposited data

Results flagged for a closer look

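Differences in response between the species at 40% were called for 4823 of 10905 genes (limma interaction, adjusted p under 0.05), 2497 higher and 2326 lower in An. merus. The named genes with the largest of these among genes called in An. merus were AGAP006984 (log2 difference 6.24, An. merus minus An. coluzzii), AGAP006986 (5.38), AGAP006400 (-4.22) and AGAP006525 (-3.80). All 4 kept their call for the difference in every alternative they entered, 22 for AGAP006986 and 21 for each of the others. AGAP006984 and AGAP006986 were both highest in An. merus 40% C and An. coluzzii 0% B of the pools in their groups, and are uncertain as separate measurements. Without 40% C the rise of AGAP006984 in An. merus alone lost its call (limma adjusted p = 0.077). AGAP006984, AGAP006400 and AGAP006525 were too low to enter the alternative limited to genes with a mean of at least 5 CPM.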

How the results depend on the processing

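The count at 40% against fresh water was 1747 with only the 6 libraries fitted, 1732 of them among the 4286, and 2885 to 4660 when single libraries were left out. With the replicate letter as a block it was 4540. The labels do not say if the letters pair the samples. Over 8758 genes, deviations of same-lettered libraries (A, B and C) at 0 and 40% correlated at -0.03, -0.58 and 0.32. The values were 0.08, -0.14 and 0.37 for 30 with 40%, and 0.04, 0.29 and 0.24 for 40 with 50%. Deviations taken from the means of only 3 libraries cannot decide whether the letters pair. With quantile normalization the rises outnumbered the falls at 40% (2198 and 2098). For 40 against 30% the count was 77 with An. merus fitted alone, 0 with only those groups, 340 with DESeq2 and 263 under the block, and 52 to 202 when libraries were left out. Where any were called, rises were 28.3 to 55.8% of them. Genes risen at 40% and lower again at 50% (102) numbered 157 with quantile normalization, 204 with library totals, 61 with An. merus alone and 57 to 107 when libraries were left out. Genes fallen and higher again (132) numbered 61 with library totals and 74 to 156 when libraries were left out. The other counts stayed within 1.5 times in every alternative run, though the split into higher and lower moved with library totals for the step to 50%, for the interaction and for the genes shared between or opposite in the species (opposite 250 and 215 with quantile normalization). Of 32 results for named genes under 16 to 22 alternatives each, 555 in all, 516 kept direction and call, 39 lost the call and 0 reversed. The cause of lost calls or changed counts was not tested. Fits of fewer libraries also have fewer residual degrees of freedom. With only the groups compared, the count was 4437 against 4886 for the step to 50%. For 40% against fresh water it was 1747 against 4286. Low genes rest on few reads, which limits them.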
